A study of Mus musculus with 6 samples.

Results

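The genes described here make, carry, bind and remove retinoic acid. They are Rbp4, Stra6, Rdh10, Aldh1a1, Aldh1a2, Aldh1a3, Crabp1, Crabp2 and Cyp26b1, 9 genes of the 18193 that have a probe set with a single gene symbol on the array. Members were taken by symbol, and 12 of the 45101 probe sets carry one of these symbols alone: 7 genes have 1 probe set, Rdh10 has 2 and Aldh1a3 has 3. RNA came from cortex of untreated mice of BAC transgenic line ES691, whose driver is S100a10, backcrossed from FVB for 3 to 5 generations onto C57BL/6. Translating ribosome affinity purification (TRAP) pulls down tagged ribosomes from the cells that express the transgene, together with the mRNA on them. The TRAP group held 3 samples of such RNA. The unbound group held 3 samples of cortex RNA from the same line, named input in the sample titles and unbound or flow-through in the descriptions and the series text. The series text states that the S100a10 BAC also labels some non-neuronal cells, so the TRAP values cover all labelled cells and not pyramidal cells alone. The labels call the samples biological replicates and do not state age, sex or how many animals gave each sample. The p-values therefore rest on the scatter of 3 arrays a group, part of which may be technical.

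Retinoic acid is a lipid hormone made from vitamin A (retinol). Retinol travels in blood on retinol binding protein, enters cells through the receptor Stra6, is oxidised to retinaldehyde by retinol dehydrogenases and then to retinoic acid by retinaldehyde dehydrogenases of the Aldh1a family. Inside the cell the acid is carried by the binding proteins Crabp1 and Crabp2, acts through nuclear receptors of the Rar and Rxr families and is inactivated by Cyp26 hydroxylases. The meninges, the coverings of the brain, are a known source of retinoic acid for the developing mouse cortex.

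Of the synthesis and binding genes, Crabp2 was 32.6-fold, Aldh1a2 24.1-fold and Aldh1a1 6.17-fold higher in TRAP RNA than in unbound RNA, and the uptake receptor gene Stra6 (3.40-fold) and the hydroxylase gene Cyp26b1 (2.49-fold) were higher as well. Aldh1a3 was lower, Rbp4 did not pass the test, the probe sets of Rdh10 went opposite ways, and Crabp1 stayed near background in both groups.

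Levels are linear GCRMA intensities as the authors deposited them. They can be compared between arrays for 1 probe set, not between probe sets. Between TRAP and unbound arrays the comparison also depends on how the arrays were scaled, as given below. A gene was tested if a probe set reached a mean of 50 in at least 1 group, and where a gene had several, the brightest one on average stood for it. Differences were tested with limma on log2 intensity over 12070 genes, with Benjamini-Hochberg adjustment and a threshold of 0.05. Each adjusted p below is from that fit unless another is named. The fit left out the pairing of TRAP and unbound samples by replicate number. With the replicate number as a block in limma, the call of Rdh10 was lost (adjusted p = 0.076), and no call of another tested member changed. Of the 9 members 8 were tested. In 6 of these the mean reached 50 in both groups, while Stra6 passed through the TRAP group alone and Aldh1a3 through the unbound group alone, so a difference in those 2 was partly built in by the filter. Of the 8, 7 were called, against a background of 69% of all tested genes: 5 were higher, against 23.3%, and 2 lower, against 45.7%. Of the 2 lower calls 1 was that of Rdh10, whose other probe set was called higher, and no direction can be given for it. The groups did not overlap in 7 of the 8 tested members, against 75.5% of all genes (TRAP above in 5, against 25.9%, and below in 2, against 49.6%), so non-overlap alone does not set the members apart. All 5 higher members were at least 2-fold higher, against a background of 7.29%, and 4 of them, without Cyp26b1, passed limma's test against a 2-fold change (treat), against 4.53%. Stra6 is in both counts through unbound values under the minimum, and is 1.57-fold higher with values under 50 raised to 50, which leaves 4 and 3 whose level was above the minimum in both groups. Of the lower members 1, Aldh1a3, was at least 2-fold lower, against 13.3%, and 0 passed treat, against 6.56%. The median log2 fold change was 1.54 over the tested members and -0.21 over all tested genes. The members' median lies midway between Cyp26b1 (1.32) and Stra6 (1.76), so it rests in part on Stra6. With values under 50 raised to 50, Stra6 is at 0.65. The members were also chosen with earlier results of these data known.

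**Figure D1:**
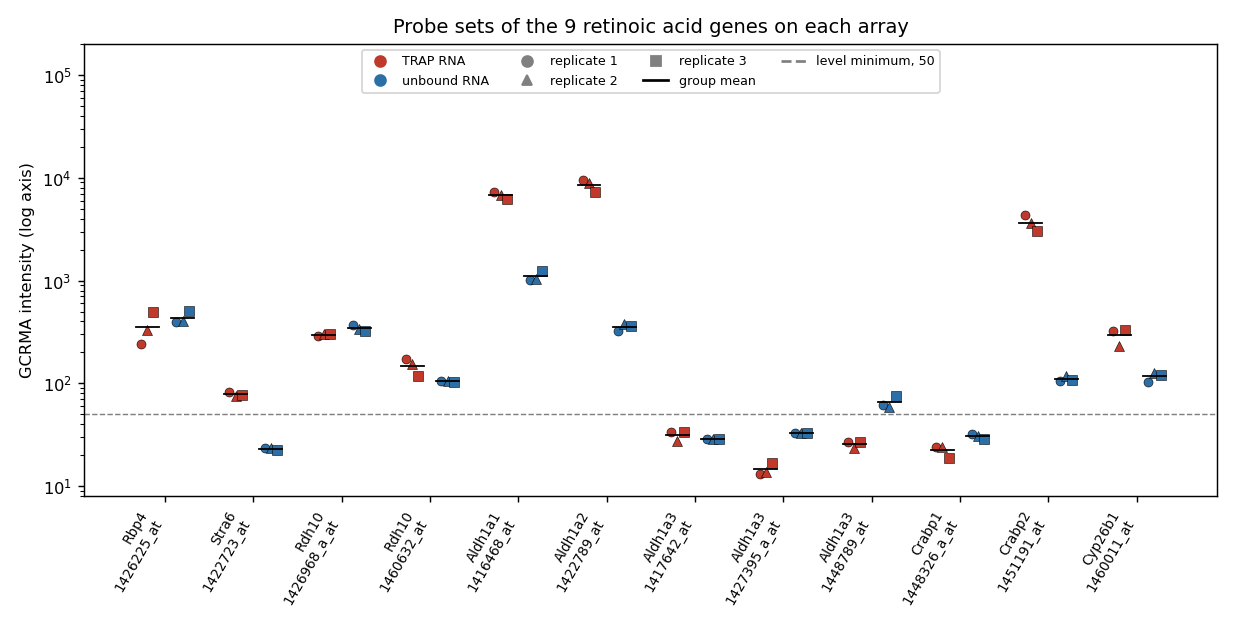
GCRMA intensity (log axis) of the 12 probe sets of the 9 genes, ordered from uptake to clearance, with TRAP arrays in red to the left of unbound arrays in blue; symbols mark replicates, bars the group means and the dashed line the level minimum of 50. The Aldh1a1, Aldh1a2, Crabp2, Stra6 and Cyp26b1 points of the TRAP group lie above all unbound points, while the Aldh1a3 and Crabp1 probe sets lie near or below the dashed line.

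A few facts of the arrays bear on these values. S100a10, the driver gene, was 5.86-fold higher in TRAP RNA (adjusted p = 8.3e-05). Median intensity over all probe sets was 31.4 to 31.8 on TRAP arrays and 42.4 to 43.1 on unbound arrays. The split of calls depended on scaling: 33.8% of called genes were higher as deposited, 50.6% after centring on the tested genes, 50.8% after quantile normalisation and 68.2% after centring on all probe sets. Any 2 arrays of a group shared the exact value of 17.5% to 21.4% of the probe sets above the minimum, and a TRAP and an unbound array that of 0%; the cause was not tested. Repeats within a group occurred in 53.0% of the probe sets above the minimum and in 7 of the 12 probe sets of the members, so the spread between arrays can understate the error there. With bulk RNA, a difference in the share of labelled cells of a type and a difference in RNA per cell cannot be told apart.

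Uptake was represented by Rbp4 and Stra6, which behaved differently. Rbp4 encodes the plasma carrier of retinol, and its regulatory sequence drives a Cre line widely used to mark layer 5 pyramidal cells. Its intensities were 240, 329 and 494 on the TRAP arrays and 399, 407 and 503 on the unbound arrays. The groups overlapped, since TRAP replicate 3 lay above 2 of the unbound arrays. The log2 fold change was -0.36 (SE 0.29, adjusted p = 0.31), with a 95% interval for TRAP over unbound from 0.470 to 1.30, so neither no change nor a halving lies outside it. The value changed sign after centring on all probe sets (log2 0.08), and without TRAP replicate 3 it was -0.63 with an adjusted p of 0.051.

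Stra6, the membrane receptor that takes up retinol from Rbp4, measured 82.8, 76.0 and 76.6 in TRAP RNA and 23.3, 23.3 and 22.6 in unbound RNA. Every TRAP array lay above every unbound array, and the unbound values were under the level minimum. The difference was 3.40-fold (log2 1.76, SE 0.04, adjusted p = 5.8e-06). With values under 50 raised to 50 it was 1.57-fold (adjusted p = 1.5e-04), so most of its size rests on unbound values near background.

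Rdh10 encodes the retinol dehydrogenase that makes retinaldehyde, the first oxidation on the way to retinoic acid. Its brighter probe set, of the type marked _a_at, measured 286, 304 and 304 in TRAP RNA and 368, 341 and 323 in unbound RNA, a 1.15-fold lower level (log2 -0.21, SE 0.06, adjusted p = 0.028). Its other probe set, of the unmarked type, measured 171, 153 and 119 in TRAP RNA and 106, 106 and 103 in unbound RNA, a 1.39-fold higher level (log2 0.47, SE 0.14, adjusted p = 0.032 in limma's fit over 20291 probe sets). In each case the groups did not overlap, but in opposite directions. Over all probe sets of that fit 46.6% were called lower and 21% higher, and 517 of the 5152 genes with several probe sets above the minimum had some called each way. The call on the brighter probe set was lost with the replicate number as a block (adjusted p = 0.076) and without each of TRAP replicates 1, 2 and 3 or unbound replicate 2 (adjusted p from 0.057 to 0.080), and the sign turned under each of the 3 other scalings. Its fold change equalled the median of all genes to within 0.0011 on the log2 scale, and no direction can be given for Rdh10.

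The 3 retinaldehyde dehydrogenases, which carry out the final oxidation to retinoic acid, did not move together. Aldh1a2 (RALDH2) is the main retinoic acid enzyme of the mouse embryo. It measured 9417, 8867 and 7276 in TRAP RNA and 322, 375 and 358 in unbound RNA. The lowest TRAP array stood far above the highest unbound array. The log2 fold change was 4.59 (SE 0.12, adjusted p = 6.2e-06), with a 95% interval from 19.6-fold to 29.7-fold, the 33rd highest of the 12070 tested genes.

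Aldh1a1 (RALDH1), which also oxidises other aldehydes, measured 7268, 6826 and 6186 in TRAP RNA and 1021, 1040 and 1230 in unbound RNA. Again the groups were far apart, with unbound values well above the level minimum. The difference was 6.17-fold (log2 2.63, SE 0.10, adjusted p = 2.1e-05, 95% interval from 5.17-fold to 7.37-fold). The change of Aldh1a2 was 3.91 times that of Aldh1a1, a ratio of ratios within arrays that no multiplicative factor common to an array can alter. A scaling that depends on intensity, such as quantile normalisation, can alter it. The within-array log2 difference between the 2 probe sets was higher on each TRAP array than on each unbound array, with an exact permutation p of 0.1, two-sided, the smallest that 3 against 3 samples allow. It was 1 of 3 such pairs, chosen after the values were seen, and the p adjusted over them was 0.1 as well.

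Aldh1a3 (RALDH3) was near background. Its brightest probe set measured 27.0, 23.3 and 27.0 in TRAP RNA and 61.4, 59.4 and 75.2 in unbound RNA, and passed the minimum through the unbound group alone. It was called 2.53-fold lower (log2 -1.34, SE 0.12, adjusted p = 3.7e-04), or 1.30-fold lower with values under 50 raised to 50 (adjusted p = 0.020). The other 2 probe sets were under the minimum in both groups and were not tested. One measured 13.3, 13.7 and 16.7 in TRAP RNA and 32.9 on each unbound array, and the other 33.8, 27.8 and 33.8 in TRAP RNA and 29.0 on each unbound array, where the groups overlapped.

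The start regions of the 2 higher dehydrogenase genes are shown because these genes rose together. RefSeq (GRCm38.p6) gives promoter windows, 250 bases before to 50 after a start site, for 6 of the 9 members (11 windows; Crabp2, Aldh1a3 and Rdh10 were not matched). The windows lie at chr9:71215539-71215838, plus strand, for Aldh1a2 and at chr19:20601718-20602017, plus strand, for 1 of the 2 listed start sites of Aldh1a1. Capitals mark the octamer core TGCAAAT, a binding motif of POU-domain factors, and the CCAAT box. These, the TATA box TATAAA, the forkhead motif GTAAACA and the retinoic acid receptor half-sites below were searched on both strands, and the motifs were chosen after the sequences were read.
Aldh1a2: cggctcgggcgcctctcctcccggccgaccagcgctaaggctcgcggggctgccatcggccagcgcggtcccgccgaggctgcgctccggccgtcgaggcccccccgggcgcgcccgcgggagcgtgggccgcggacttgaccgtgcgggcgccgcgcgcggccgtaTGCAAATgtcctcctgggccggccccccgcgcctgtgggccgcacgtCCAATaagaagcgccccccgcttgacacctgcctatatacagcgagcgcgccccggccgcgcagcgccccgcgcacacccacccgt
Aldh1a1: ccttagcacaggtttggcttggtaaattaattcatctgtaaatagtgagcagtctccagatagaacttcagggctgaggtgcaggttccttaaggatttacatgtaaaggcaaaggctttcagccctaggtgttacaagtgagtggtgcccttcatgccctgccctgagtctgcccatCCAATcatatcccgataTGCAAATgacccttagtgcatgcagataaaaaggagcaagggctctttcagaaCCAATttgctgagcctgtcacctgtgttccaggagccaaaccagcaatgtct
The octamer core begins 83 bases before the start site of Aldh1a2 and 55 bases before that of Aldh1a1. Among all 32851 windows 4.02% hold it, and none of the other 9 windows of the members does. A CCAAT box lies 36 bases before the Aldh1a2 start and 72 and 2 bases before the Aldh1a1 start, and 37.4% of all windows hold one. The windows differ in base composition, with 78.0% G and C for Aldh1a2 and 47.0% for Aldh1a1, against a median of 52.7% over all windows. Neither TATAAA (13.6% of all windows) nor GTAAACA (3.65%) is in the 2 windows shown. The half-site was searched as AGGTCA and as its variants with the letters GGGTCA, with AGTTCA and with GGTTCA. At least 1 form is in 43.7% of all windows; the Aldh1a1 window holds GGGTCA on the minus strand, beginning 49 bases before the start, at the base that ends the octamer core, and the Aldh1a2 window holds none. Direct repeats of half-sites with spacers of 1, 2 or 5 bases were in none of the 11 windows, and in 0.222%, 0.268% and 0.0974% of all windows. These are matches of letters, not evidence of binding.

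Of the 2 cellular retinoic acid binding proteins, one was measured well above background. Crabp2, which delivers retinoic acid to nuclear receptors, measured 4343, 3595 and 3003 in TRAP RNA and 106, 119 and 107 in unbound RNA. It had the highest fold change of the members and the 15th highest of all tested genes, at 32.6-fold (log2 5.03, SE 0.15, adjusted p = 9.4e-06, 95% interval from 25.2-fold to 42.3-fold). All TRAP arrays lay above all unbound arrays, which themselves were above the minimum, so raising values under 50 left the fold at 32.6. The change of Crabp2 was 1.35 times that of Aldh1a2, with within-array differences that did not overlap between groups (exact permutation p = 0.1, two-sided, the smallest possible).

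Crabp1, the related cytosolic binding protein, was under the minimum in both groups and did not enter the main test. Its single probe set, of the type marked _a_at, measured 24.2, 24.2 and 18.7 in TRAP RNA and 32.2, 30.9 and 28.8 in unbound RNA. When the minimum was dropped, limma called it lower (log2 -0.46, SE 0.12, adjusted p = 0.023), but at this signal only a bound on its level can be read from the arrays.

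Cyp26b1, the hydroxylase that removes retinoic acid in the brain and elsewhere, measured 325, 229 and 330 in TRAP RNA and 104, 125 and 121 in unbound RNA. TRAP replicate 2 was lower than the other TRAP arrays, yet above every unbound array. The difference was 2.49-fold (log2 1.32, SE 0.17, adjusted p = 0.0016, 95% interval from 1.84-fold to 3.38-fold), and it was 2.81-fold without TRAP replicate 2. It did not pass the test against a 2-fold change (treat adjusted p = 0.41).

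**Figure D2:**
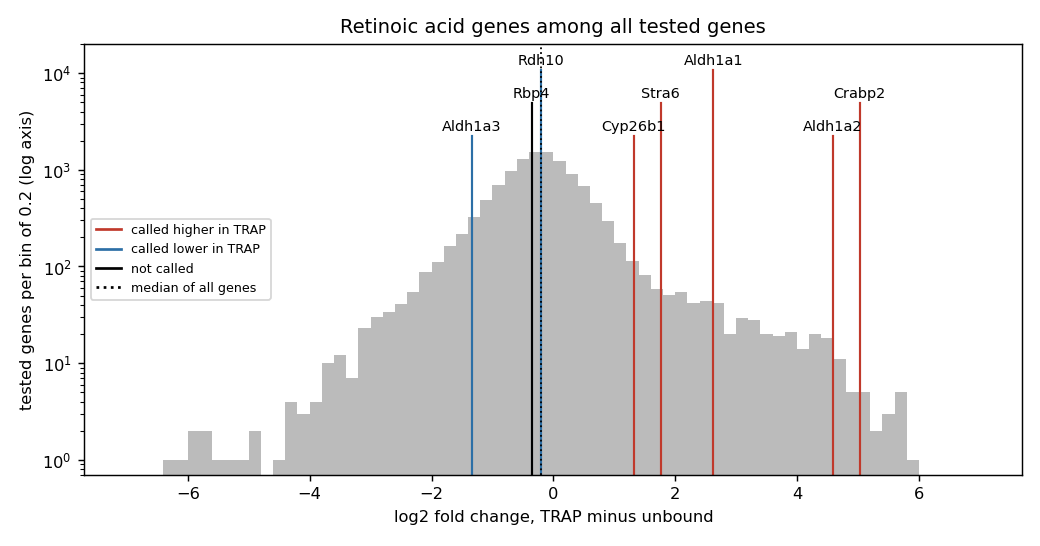
Histogram of log2 fold changes, TRAP minus unbound, of the 12070 tested genes (bins of 0.2, counts on a log axis), with vertical lines for the 8 tested members. Aldh1a2 at 4.59 and Crabp2 at 5.03 lie in the far upper tail, Aldh1a1, Stra6 and Cyp26b1 between 1.32 and 2.63, and Rdh10 and Rbp4 beside the dotted median of -0.21.

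Among TRAP arrays the higher members did not share 1 order. Aldh1a1, Aldh1a2, Crabp2 and Stra6 were highest on TRAP replicate 1, and Cyp26b1 on TRAP replicate 3. Rbp4 was lowest on TRAP replicate 1. Of 14 tested meningeal fibroblast markers, 4 were highest on TRAP replicate 1, 8 on replicate 2 and 2 on replicate 3.

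Genes with the most similar profile were taken as the 3 with the lowest root mean square difference from a member in log2 intensity over the 6 arrays, after each gene's mean was subtracted. For Aldh1a2 these were the annexin genes Anxa1 (0.0847) and Anxa2 (0.0914) and the transcriptional coactivator gene Eya2 (0.101). Crabp2 was most like the prostaglandin F receptor gene Ptgfr (0.104), the transcription factor gene Osr1 (0.116) and the carbonic anhydrase gene Car13 (0.146). For Aldh1a1 they were Hsf2bp (0.0708), Nat8f3 (0.0962) and the interferon-induced gene Ifit3 (0.104), and for Cyp26b1 the lipoxygenase gene Alox12 (0.114), the potassium channel gene Kcnk2 (0.116) and Mlf1 (0.123). Stra6 was closest to Uba7 (0.0209), Lix1l (0.0301) and Acot5 (0.0403). Rbp4 was closest to Lrrn2 (0.0706), Kirrel3 (0.124) and Tmem132e (0.130), Aldh1a3 to Elavl1 (0.0663), Mga (0.0734) and Gm11944 (0.0825), and Rdh10 to Sfxn3 (0.0249), Ppp1cb (0.0269) and Hook2 (0.0309). The points are 6 arrays in 2 groups, so likeness here mostly means a similar fold change.

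**Figure D3:**
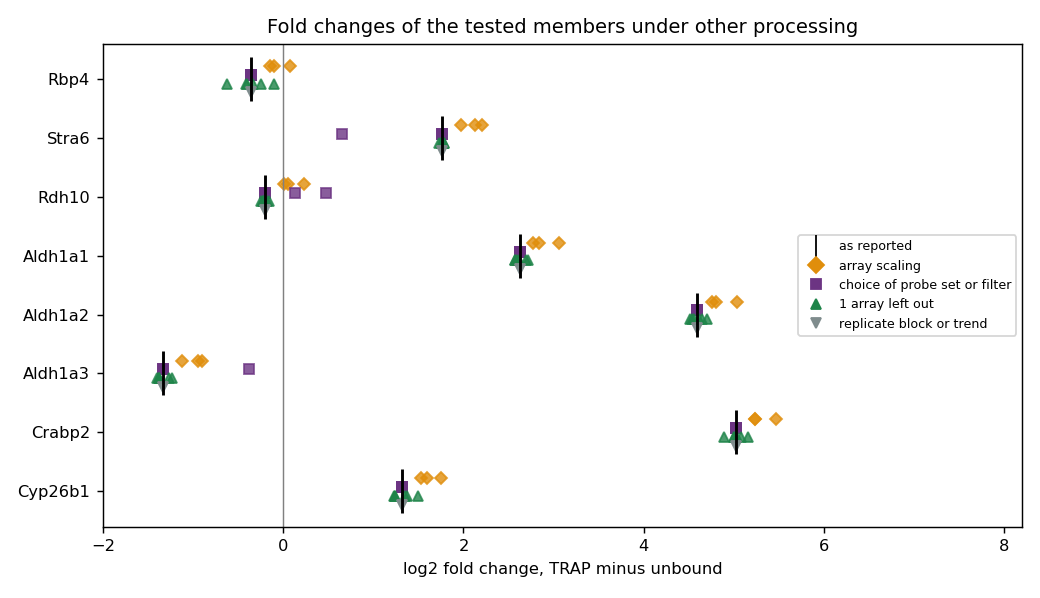
Log2 fold changes, TRAP minus unbound, of the 8 tested members as reported (black bars) and under other array scalings, probe set choices or filters, left-out arrays, and the replicate block or variance trend. Aldh1a1, Aldh1a2, Crabp2, Stra6 and Cyp26b1 stay above 0 and Aldh1a3 below 0 under each setting that gave them a value, whereas Rdh10 and Rbp4 lie on either side of 0. Stra6 and Aldh1a3 have no value with both group means at least 50 or on probe sets without repeated values.

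The rest of the retinoid pathway was read from lists of 62 other genes, of which 27 were tested: 8 were higher, 9 lower and 10 not called, with a median log2 fold change of 0.09, against 23.3% higher, 45.7% lower and a median of -0.21 over all tested genes. With the replicate block 9 were higher and 10 lower, with Rarb and Ttr the 2 calls that changed. Of 23 enzymes and storage genes 7 were tested, and 3 were higher and 1 lower, each by less than 2-fold. Rdh14, a retinol dehydrogenase, was 1.42-fold higher (adjusted p = 0.0011) with 4031 on each TRAP array against 2878, 2640 and 3042 on unbound arrays, but its 2 dim probe sets were lower in TRAP RNA, and with the mean of its probe sets the sign turned (log2 -0.83). Dhrs3, which turns retinaldehyde back into retinol, was 1.37-fold higher (adjusted p = 0.012), and the alcohol dehydrogenase gene Adh5 1.31-fold higher (adjusted p = 0.029), a call that ended when TRAP replicate 1 or 2, or unbound replicate 2 or 3, was left out (adjusted p between 0.080 and 0.090). Rdh13 was 1.29-fold lower (adjusted p = 0.019), a call that ended when any TRAP array, or unbound replicate 3, was left out (adjusted p between 0.056 and 0.057) and under all 3 other scalings, with the sign turned after centring on all probe sets (log2 0.07).

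Of 8 carrier and uptake genes 3 were tested. Rlbp1, a binding protein for retinaldehyde, fell to 92.5, 111 and 102 in TRAP RNA, against 747, 536 and 680 in unbound RNA (6.38-fold lower, adjusted p = 7.2e-05). Fabp5, a fatty acid binding protein that can also carry retinoic acid, did not pass on its brighter probe set (log2 0.11, adjusted p = 0.16). Its dimmer probe set, also above the minimum, measured 5641, 4701 and 5641 in TRAP RNA and 4041, 2899 and 3280 in unbound RNA, without overlap. Ttr, transthyretin, is the plasma partner of Rbp4 and a product of choroid plexus. It measured 35.0, 36.4 and 175 in TRAP RNA and 159, 76.3 and 2886 in unbound RNA, so unbound replicate 3 stood apart, and TRAP replicate 3 was the highest of its group (adjusted p = 0.22). With the replicate block Ttr was called lower (log2 -2.43, SE 0.69, adjusted p = 0.048). Without unbound replicate 3 no call among the tested members changed.

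Among 12 receptor and coregulator genes 9 were tested, and 2 were higher and 4 lower, shares close to those over all genes. The retinoic acid receptor gene Rarg rose to 234, 252 and 203 in TRAP RNA, against 122, 129 and 119 in unbound RNA (1.86-fold, adjusted p = 6.4e-04). Rarb, itself induced by retinoic acid in many cells, measured 285, 201 and 226 in TRAP RNA and 209, 141 and 188 in unbound RNA, so the groups overlapped, but it was higher in TRAP RNA in each of the 3 pairs of same-numbered samples. It did not pass without the pairing (log2 0.41, SE 0.20, adjusted p = 0.13) and was called higher with the replicate block (SE 0.066, adjusted p = 0.013). Rara was under the minimum in both groups. Of the partner receptors, Rxrg was 2.90-fold lower (adjusted p = 2.6e-04) at 70.2, 70.1 and 86.0 in TRAP RNA and 243, 218 and 195 in unbound RNA, Rxrb was 1.35-fold higher (adjusted p = 0.0019), and Rxra did not pass (log2 -0.23, adjusted p = 0.065). The coregulator genes Ncoa2 and Nrip1 were 1.66-fold and 1.44-fold lower (adjusted p = 0.0032 and 0.0042), and both calls were lost after centring on all probe sets (log2 -0.30 and -0.09). On probe sets without repeated values Ncoa2 was not called (log2 -0.21, adjusted p = 0.43), nor was Nrip1 with the mean of its probe sets (log2 -0.15, adjusted p = 0.31). The Nrip1 call was also lost without any 1 of the unbound replicates (log2 from 0.08 to 0.47), where another probe set became the brightest and the sign turned.

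Of 21 genes known to respond to retinoic acid in various cells, 11 were tested, and 4 were higher and 4 lower, with a median log2 fold change of 0.16. Rarres2, which encodes the chemoattractant chemerin, measured 541, 441 and 526 in TRAP RNA and 76.5 on each unbound array (6.55-fold, adjusted p = 1.2e-05). Tgm2, a transglutaminase, measured 1283, 1521 and 1240 in TRAP RNA and 259, 232 and 320 in unbound RNA (5.02-fold, adjusted p = 1.2e-04). A dim Tgm2 probe set above the minimum went the other way, at 60.5, 60.5 and 62.0 in TRAP RNA and 75.9 on each unbound array. The other Tgm2 probe sets above the minimum were higher in TRAP RNA. The homeobox genes Meis2 and Meis1 were 4.42-fold and 2.98-fold lower (adjusted p = 2.2e-04 and 2.5e-06). Meis1 measured 78.3 on each TRAP array and 230, 230 and 239 on the unbound arrays, so repeated values can understate its error. The other Meis1 probe sets, under the minimum in both groups, were higher in TRAP RNA. Cyp26a1, another retinoic acid hydroxylase and a common target gene, was under the minimum, at 9.0 on each TRAP array and 16.8, 16.8 and 16.5 on unbound arrays.

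**Figure D4:**
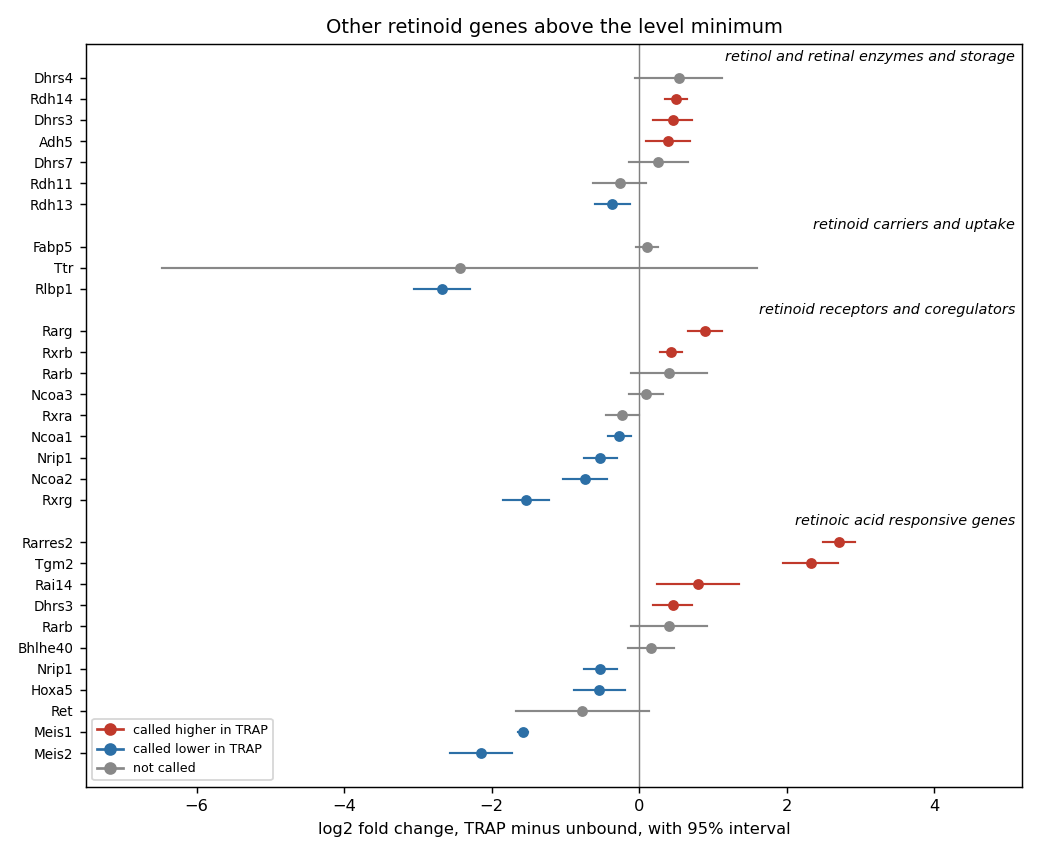
Log2 fold change, TRAP minus unbound, with its 95% interval, of the other retinoid genes above the level minimum, by list; red is called higher, blue lower and grey not called. Rarres2 and Tgm2 lie above 2, Rlbp1 and Meis2 below -2, and Ttr, also below -2 but not called, has the widest interval.

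Marker lists of other cell types did not all go the same way. Of 15 meningeal fibroblast markers 14 were tested and all 14 were higher in TRAP RNA; their summed intensity was 45172 to 53395 on TRAP arrays and 1806 to 2223 on unbound arrays, and Col1a1 was under the minimum in both groups. Of 9 pericyte and smooth muscle markers 7 were tested, with 5 higher and 1 lower. Their sums were 5457 to 6819 in TRAP RNA and 1951 to 2286 in unbound RNA. The lower one was Rgs5, at a mean of 209 in TRAP RNA and 973 in unbound RNA (adjusted p = 8.7e-07). Cspg4 was not called, and Kcnj8 and Abcc9, which define pericytes, were under the minimum. Endothelial markers were mostly under the minimum, with 3 of 9 tested, 1 higher and 1 lower, and sums of 244 to 283 in TRAP RNA and 171 to 172 in unbound RNA. Among choroid plexus and ependymal genes 5 of 8 were tested, with 3 higher and 1 lower, and sums of 1122 to 1387 in TRAP RNA and 300 to 3108 in unbound RNA, highest on unbound replicate 3; Folr1, Otx2 and Foxj1 were under the minimum in both groups. The part of these cell types in the changes of Aldh1a1, Aldh1a2, Crabp2, Stra6 and Cyp26b1 was not tested.

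For the other cortical cells, all 7 tested oligodendrocyte markers, 7 of 8 microglial markers and 9 of 10 tested interneuron markers were lower in TRAP RNA, and astrocyte markers were higher in 2 and lower in 6 of 10. With the replicate block the astrocyte gene Slc1a3 (adjusted p = 0.019) and the pyramidal neuron gene Slc17a7 (adjusted p = 0.032) were called lower as well. For pyramidal neurons, the class named in the series title, 3 of 8 tested markers were higher and 3 lower, with sums of 15307 to 15907 in TRAP RNA and 14947 to 17137 in unbound RNA. Among 6 tested layer 5 genes 4 were higher and 2 lower (median log2 fold change 0.19), with sums of 35274 to 37370 in TRAP RNA and 37654 to 38709 in unbound RNA. Pcp4, Fezf2, Deptor and Hsd11b1 were the 4 higher ones, at log2 0.15, 0.22, 0.58 and 0.88, each under 2-fold. Of the lower ones, Crym was at log2 -0.26 and Bcl11b averaged 1650 in TRAP RNA and 6730 in unbound RNA. Pcp4, at means of 30414 in TRAP RNA and 27325 in unbound RNA, made up most of these sums.

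**Figure D5:**
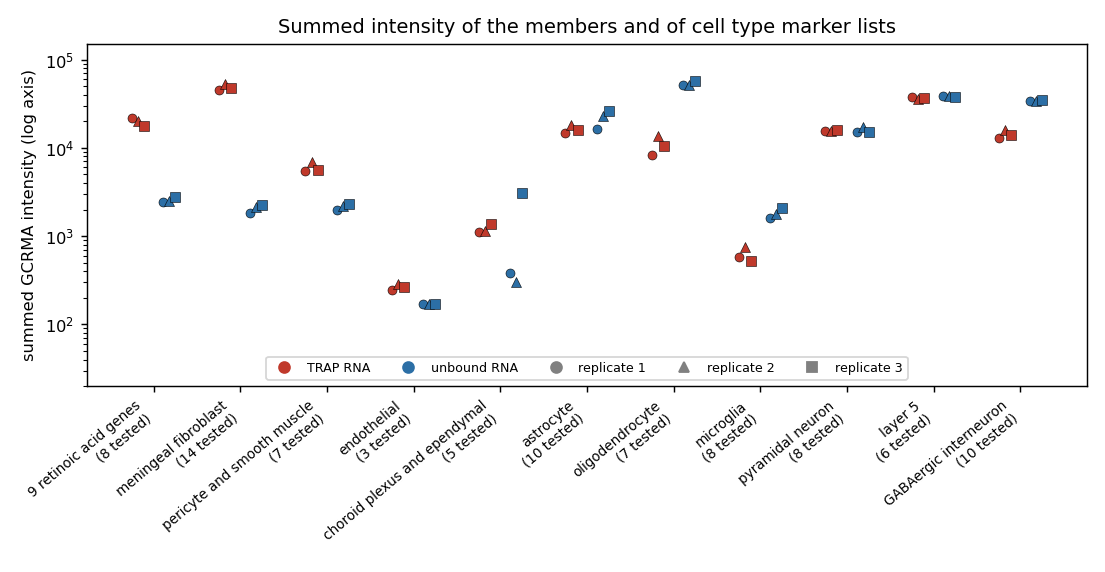
Summed GCRMA intensity (log axis) on each array over the tested members and over the tested genes of each marker list, TRAP arrays in red to the left of unbound arrays in blue, symbols marking replicates; heights of different lists are not comparable. The members' sum (17697 to 21988 on TRAP arrays, 2406 to 2741 on unbound arrays) and the meningeal sum are the 2 with the widest gaps upward in TRAP RNA. Aldh1a2, Aldh1a1 and Crabp2, at means of 8520, 6760 and 3647 in TRAP RNA, made up most of the members' sum there.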

How the data were processed

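RNA from 3 TRAP and 3 unbound cortex samples was measured on Affymetrix arrays after amplification in 2 cycles, per the labels' protocols. The deposited intensities are linear and were made by the authors with GCRMA per the submitters' processing notes, in a version not given in the sources used here. GCRMA corrects background, quantile-normalises and summarises probes by median polish, which compresses low values and can repeat a value across arrays; the sources used here do not say whether both groups were normalised together. The table holds single arrays, 0 value columns were left unused, and 0 values were at or below 0, so log2 was taken without a pseudocount. The number of arrays limits the precision.

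Groups and replicate numbers came from sample titles. Of 45101 probe sets, 34958 have 1 gene symbol, 932 several and 9211 none in the platform annotation; 34754 of those with 1 matched RefSeq by Entrez ID, which changed 0 symbols. The array table gives no genome build; coordinates are those of the RefSeq promoter table. Genes were fitted with limma 3.58.1 in R 4.3.3 (group as the only term, two-sided), after a level minimum of 50 taken from the series text; the fit was checked on simulated data. The members and lists were chosen with earlier results of these data known. The genes named are the members, S100a10, up to 4 called genes of each retinoid list with the largest folds, and the 3 most similar profiles of each tested member; other genes were named after their values were seen. After each group's mean was removed, TRAP and unbound arrays of one number correlated across genes at 0.496, 0.456 and 0.367. Arrays of different numbers correlated at -0.373 to -0.0458, so the numbers pair the samples. The main fit left this pairing out, and a fit with the replicate as a block was an alternative. The others were filters, scalings, probe set choices, a variance trend, a test against a 2-fold change and each array left out; centring on the tested genes was added after seeing the data.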

Additional observations from a re-analysis of the deposited data

How the results depend on the processing

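Over 18 alternatives, 5 members were called higher under most, 4 with both group means at least 50, on probe sets without repeated values and by the test against a 2-fold change, and 6 after centring on all probe sets or on unmarked probe sets, where Rdh10 joined. Over all genes, 2812 of 12070 were called higher as reported. In the settings just named, in order, they were 2332 of 10979, 1372 of 6975, 547 of 12070, 5747 of 12070 and 2199 of 10431. The count of lower members, 2 as reported, was 1 with both means at least 50, after centring on all probe sets or on the tested genes, after quantile normalisation, with the replicate block, with the mean of the probe sets of a gene and on unmarked probe sets, and 0 on probe sets without repeated values and by the test against a 2-fold change. It was 3 with no filter, where Crabp1 joined, and ranged from 1 to 2 with 1 array left out, being 1 without TRAP replicate 1, 2 or 3 or unbound replicate 2. Lower calls over all genes were 4909 of 10979 with both means at least 50, 5142 of 10431 on unmarked probe sets and 8354 of 18193 with no filter. Of 12070 genes they were 2676 and 4006 after centring on all probe sets or on the tested genes, 3983 after quantile normalisation and 5662 with the mean of the probe sets. The calls of Aldh1a1, Aldh1a2, Crabp2, Stra6, Cyp26b1 and Aldh1a3 kept their direction and side of the threshold in each alternative that gave them a fold change; by the test against a 2-fold change Cyp26b1 (adjusted p = 0.41) and Aldh1a3 (adjusted p = 0.13) did not pass. Their folds ranged from 5.95 to 8.35, 22.9 to 32.7, 29.7 to 44.1, 1.57 to 4.6 and 2.34 to 3.37 for the higher 5 and from 1.30 to 2.64 lower for Aldh1a3. Aldh1a1, Aldh1a2, Crabp2 and Cyp26b1 each have 1 unmarked probe set, above 50 on every array and without repeated values. For these genes filters, probe set choices, the block and the trend could not alter the fold. Only other scalings and left-out arrays could move it. Rdh10 turned to log2 0.23 (centring on all probe sets), 0.053 (quantile normalisation), 0.0043 (centring on the tested genes), 0.13 (mean of probe sets) and 0.47 (unmarked probe sets); Rbp4 turned to 0.080 after centring on all probe sets, as Rdh13 did to 0.073. Rdh14 turned to -0.83 with the mean of its probe sets. Nrip1 ranged from -0.56 to 0.47 with 1 array left out. Over all genes, 2812 higher and 5517 lower calls became 4797 and 8354 with no filter, 5747 and 2676 after centring on all probe sets, 1372 and 2734 on probe sets without repeated values (6975 genes tested) and 547 and 792 by the test against a 2-fold change; with 1 array left out they ranged from 2442 to 2822 and from 4859 to 5215. The replicate block gave 2990 and 5799 calls, and among the members changed the call of Rdh10 alone (log2 -0.21, adjusted p = 0.076); among the other retinoid genes it changed those of Rarb and Ttr. Scalings moved the median of all genes from -0.21 to 0.0037, 0.0054 and 0.23. Signals near background limit Stra6 in unbound RNA, Aldh1a3 in TRAP RNA and Crabp1 in both.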

Other observations

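Several retinoid genes outside the comparison, all under the level minimum in both groups, were measured as follows, with no test. Adh1, an alcohol dehydrogenase that oxidises retinol, measured 35.1, 46.9 and 32.7 in TRAP RNA and 6.80 on each unbound array. The retinoic acid receptor gene Rara measured 34.5, 35.4 and 36.1 in TRAP RNA and 21.4 on each unbound array. Rdh5 measured 22.3, 21.9 and 22.3 in TRAP RNA and 35.0 on each unbound array. The brighter of 2 Adh7 probe sets measured 27.4, 27.4 and 24.7 in TRAP RNA and 6.20 on each unbound array, and the brighter of 2 Rdh12 probe sets 25.5, 25.6 and 21.4 in TRAP RNA and 10.9, 10.9 and 15.0 in unbound RNA. Lrat, which stores retinol as an ester, gave values under 8 on its 2 probe sets in all samples. These genes were picked after their values were seen, and at such signals values show a bound rather than a level.

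The 4 Ttr probe sets were each highest on unbound replicate 3, at 246, 2886, 1892 and 1685. On unbound replicates 1 and 2 they measured 51.7, 159, 118 and 97.8 and 51.7, 76.3, 46.2 and 52.7. On the TRAP arrays each was highest on replicate 3, at 42.6, 175, 176 and 114.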
